A study of Mus musculus with 4 samples.

Results

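The interferon-inducible GTPases of mouse cells fall into the guanylate-binding proteins (GBP) and the immunity-related GTPases (IRG). Their transcripts were read here in MC38, an established murine line from a colon adenocarcinoma, after knockout of Mgat5 and in controls. Members were the probe sets whose platform annotation symbol is one of 10 chosen genes, with the highest-mean probe set standing for a gene. Of these, 7 were measured, Gbp2, Gbp3, Gbp7, Igtp, Irgm1, Irgm2 and Iigp1, each by 1 probe set, among 19505 genes in all. Gbp5, Gbp6 and Tgtp1 had no match by symbol and were not analysed here.

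The knockout group held 2 arrays, clone 1 and clone 2, both made by CRISPR-Cas9 against Mgat5, which encodes a Golgi enzyme that branches N-glycans. The control group held 2 arrays, MOCK cells with an empty vector and untransfected WT cells. The 4 samples share the MC38 background, no treatment is named, and each knockout array is a single clone. Nothing in the labels says that the 4 arrays came from separate cultures, so p-values measure only the spread between these arrays, and effects of cloning and of Mgat5 loss cannot be told apart. Values are deposited log2 signals, 1 per array, on the Clariom S mouse array.

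GBPs are large dynamin-like GTPases that gather on the membranes of intracellular pathogens and pathogen vacuoles and promote their lysis. IRGs of the effector class, such as Iigp1, load onto vacuoles, while the regulatory class, Irgm1, Irgm2 and Igtp, sits on host membranes and keeps the effectors inactive there. Both families are switched on by interferons, mainly interferon gamma, through gamma-activated sites (GAS) and through interferon-stimulated response elements (ISRE) in their promoters, which IRF1 among others binds.

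The array scales differed. Over 22206 probe sets, the 75th percentile of the log2 signal was 9.39 in clone 1, 9.60 in clone 2, 9.26 in MOCK and 8.87 in WT. Quantile normalization, which gives every array the same distribution, was therefore run beside the values as deposited, and the median knockout minus control difference over all probe sets was 0.18 log2 units as deposited and -0.02 after it. The 75th percentile of 5222 negative control features ran from 6.29 to 6.56, and a signal under it may be background. Mgat5 had a log2 signal of 7.46 in clone 1 and 7.57 in clone 2, against 8.19 in MOCK and 8.27 in WT (limma adjusted p = 0.631).

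All 7 members were highest in clone 2, where 39.2% of all probe sets were as deposited and 27.3% after quantile normalization, and clone 1 lay close to the controls. The members' median difference from the control mean was 3.29 log2 units in clone 2, or 2.77 after quantile normalization, beside 0.24 and -0.03 over all probe sets. For clone 1 it was 0.14 as deposited and -0.19 after quantile normalization, beside 0.12 and -0.02 over all probe sets, so its sign followed the scaling. MOCK minus WT had a members' median of 0.21 as deposited and -0.11 after quantile normalization. Clone 2 was at least 1 log2 unit above the control mean for 7 of 7 members under both scalings, where 11.8% of all probe sets were as deposited and 5.41% after quantile normalization. Clone 1 was that far above for 0 of 7 and that far below for 0 of 7, where 6.31% and 2.3% of probe sets were as deposited. After quantile normalization these were again 0 of 7 and 0 of 7, where 3.94% and 3.03% of probe sets were. In a bulk array, a change in the share of cells that carry a transcript and a change per cell cannot be told apart.

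**Figure D1:**
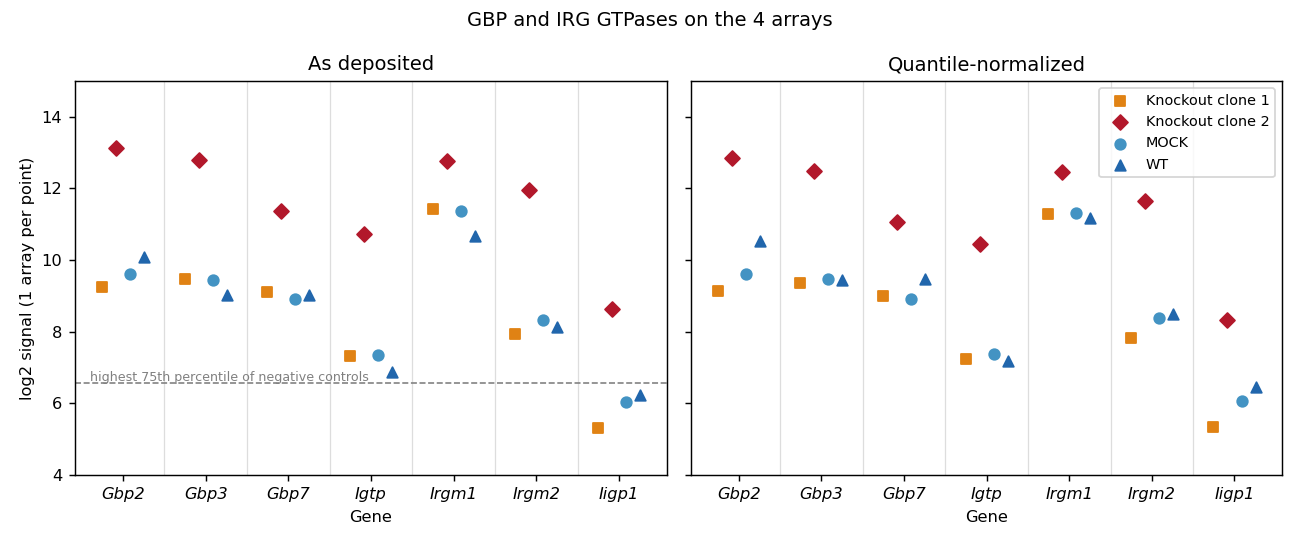
Log2 signal of the 7 measured members on each array, as deposited (left) and quantile-normalized (right), with squares for clone 1, diamonds for clone 2, circles for MOCK and triangles for WT. Clone 2 is the highest of the 4 arrays for every member in both panels, from 8.63 for Iigp1 to 13.13 for Gbp2 as deposited, and levels are to be compared within a gene only.

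The GBP members lie together on chromosome 3. Their promoter stretches are shown because each holds the letters of an ISRE core shortly before the start. Gbp3 has 2 starts in RefSeq, and its stretch is taken at the one that holds a core. The stretches are the 120 bases before the RefSeq start, plus strand of GRCm38.p6, at chr3:142620543-142620662 for Gbp2, chr3:142559924-142560043 for Gbp3 and chr3:142530216-142530335 for Gbp7. Capitals mark matches to the ISRE core GAAANNGAAA, searched on both strands and here in its reverse form TTTCNNTTTC, or to the GAS letters TTCNNNGAA, which read the same on both strands.
Gbp2: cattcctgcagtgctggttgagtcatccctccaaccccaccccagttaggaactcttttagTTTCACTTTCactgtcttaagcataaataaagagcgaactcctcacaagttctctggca
Gbp3: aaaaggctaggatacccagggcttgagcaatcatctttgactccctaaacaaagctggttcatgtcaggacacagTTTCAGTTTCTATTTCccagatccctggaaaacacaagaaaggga
Gbp7: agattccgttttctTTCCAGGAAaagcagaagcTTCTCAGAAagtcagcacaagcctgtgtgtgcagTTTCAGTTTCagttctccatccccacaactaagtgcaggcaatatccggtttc
The Gbp2 match starts at -59, the base before the start being -1. In Gbp3 a match at -45 and a second at -39 overlap, and Gbp7 has GAS letters at -106 and -87 before its ISRE core at -53.

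Gbp2, which is recruited to the vacuole of Toxoplasma and to bacteria released into the cytosol, had a log2 signal of 9.25 in clone 1 and 13.13 in clone 2, against 9.61 in MOCK and 10.08 in WT. Clone 1 was the lowest array and clone 2 the highest, so the knockout group spans the controls. The clone 2 signal was 9.75-fold above the control mean as deposited and 6.83-fold after quantile normalization. Gbp3, another member of the chromosome 3 cluster, had 9.46 in clone 1 and 12.78 in clone 2, against 9.44 in MOCK and 9.02 in WT. Clone 1 was 0.02 log2 units above MOCK, which is less than the 0.42 between the controls. After quantile normalization clone 1 was below both, at 9.35, against 9.46 in MOCK and 9.45 in WT. Gbp7, which has been tied in mouse macrophages to the assembly of the NADPH oxidase on vacuoles, had 9.10 in clone 1 and 11.38 in clone 2, against 8.90 in MOCK and 9.03 in WT. Its clone 2 excess over the control mean was 2.42 log2 units as deposited and 1.89 after quantile normalization, the smallest of the 3 GBP members.

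The IRG regulators lie on chromosome 11. Their promoter stretches are given for the arrangement that Igtp and Irgm2 share, GAS letters followed after 2 bases by an ISRE core, which Irgm1 lacks. They are the 120 bases before the RefSeq start in GRCm38.p6, at chr11:58199436-58199555 (plus strand) for Igtp, chr11:58214857-58214976 (plus strand) for Irgm2 and chr11:48871421-48871540 (minus strand, printed 5′ to 3′ in the gene's direction) for Irgm1. Capitals mark the same motifs.
Igtp: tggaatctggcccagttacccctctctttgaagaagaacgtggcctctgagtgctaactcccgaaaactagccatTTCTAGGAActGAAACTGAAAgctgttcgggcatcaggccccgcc
Irgm2: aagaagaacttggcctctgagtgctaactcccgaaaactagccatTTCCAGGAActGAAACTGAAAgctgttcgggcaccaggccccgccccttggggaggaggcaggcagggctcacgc
Irgm1: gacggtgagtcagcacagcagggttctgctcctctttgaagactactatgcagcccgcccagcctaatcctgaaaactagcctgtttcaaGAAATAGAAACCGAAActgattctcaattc
In Igtp the GAS letters start at -45 and the ISRE core at -34, in Irgm2 at -75 and -64, and Irgm1 has overlapping ISRE cores at -30 and -24. The Igtp and Irgm2 stretches read almost alike around the motifs, so the arrangement they share may not be 2 separate cases.

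Irgm2, which restrains effector IRGs at the Golgi and endosomal membranes, had a log2 signal of 7.94 in clone 1 and 11.96 in clone 2, against 8.34 in MOCK and 8.13 in WT. Its clone 2 excess of 3.72 log2 units over the control mean, 13.2-fold or 9.34-fold after quantile normalization, was the largest of the 7 members under both scalings, with clone 1 below both controls. Igtp, also called Irgm3, which sits on the endoplasmic reticulum and lipid droplets, had 7.31 in clone 1 and 10.73 in clone 2, against 7.34 in MOCK and 6.87 in WT. Clone 1 lay between the controls and clone 2 was 12.3-fold above their mean, or 8.92-fold after quantile normalization. Irgm1, which is needed in mice for resistance to mycobacteria and for the survival of blood stem cells under interferon gamma, had 11.43 in clone 1 and 12.76 in clone 2, against 11.38 in MOCK and 10.68 in WT. It showed the smallest clone 2 excess, 1.73 log2 units or 1.21 after quantile normalization, and, as deposited, the widest gap between MOCK and WT, 0.70 log2 units, which was 0.13 after quantile normalization, when Gbp2 had the widest at -0.93. Iigp1, the effector also called Irga6 that coats the Toxoplasma vacuole, lies on chromosome 18 and had 5.31 in clone 1 and 8.63 in clone 2, against 6.03 in MOCK and 6.23 in WT. Its signals outside clone 2 were below the 75th percentile of the negative controls on their own arrays, so the clone 2 excess of 2.50 log2 units may rest on background in the controls.

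Set against both controls as a group, the knockout passed the test for 0 of 7 members, with limma calling 0.0405% of all probe sets at an adjusted p under 0.05. After quantile normalization it was again 0 of 7, with 0.0045% of probe sets called. The knockout minus control differences ran from 0.84 log2 units for Iigp1 (SE 0.81) to 1.92 for Igtp (SE 0.84), with adjusted p from 0.548 for Gbp3 to 0.806 for Iigp1. At an unadjusted p under 0.05 limma found 2 members, Gbp3 and Igtp, as deposited and 0 after quantile normalization, where 1944 and 1980 of all 22206 probe sets were under it. Gbp2 averaged 11.19 ± 2.74 in the knockout, against 9.84 ± 0.33 in the controls (SD, n = 2 each), and the SD between the clones exceeded that between the controls for each of the 7 members. Both clones were above both controls for 3 of 7 members as deposited, where 27.8% of probe sets were, and for 0 of 7 after quantile normalization, where 19.2% were. Gbp3 and Igtp passed when dim probe sets were left out before the fit, below the median of mean signal, where 1.77% of those kept were called, or below the negative controls' median, where 1.8% were. With trend and robust in eBayes Gbp3 passed, 1 of 7, where 1.53% of probe sets were called.

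Each clone was also set against the controls without the other. With clone 1 left out, clone 2 against MOCK and WT was called higher for 6 of 7 members, where 2.16% of all probe sets were called higher, and for 6 of 7 after quantile normalization, where 2.34% were. The limma adjusted p was 8.48e-05 for Irgm2, 0.000127 for Igtp, 0.000160 for Gbp3, 0.000398 for Gbp2, 0.00474 for Iigp1 and 0.00650 for Gbp7, and Irgm1 did not pass at 0.0842. This fit has 1 knockout array and assumes that it would vary as the controls do. With clone 2 left out, 0 of 7 members were called for clone 1, with 0 at an unadjusted p under 0.05 as deposited and 2 after quantile normalization, Gbp2 and Iigp1, both below the controls. Of all 22206 probe sets, 1668 were under that unadjusted threshold as deposited and 2825 after quantile normalization. At an adjusted p under 0.05 that fit called 0.671% of all probe sets as deposited and 1.13% after quantile normalization. The direct difference, clone 2 minus clone 1, has 1 array on each side and no test. It ran from 1.33 log2 units for Irgm1 to 4.02 for Irgm2, with a members' median of 3.32, or 3.14 after quantile normalization, beside 0.13 and -0.01 over all probe sets. Of 22206 probe sets, 27 had a larger clone 2 minus clone 1 difference than Irgm2, 32 than Gbp2, 56 than Igtp, 191 than Gbp7 and 891 than Irgm1.

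**Figure D2:**
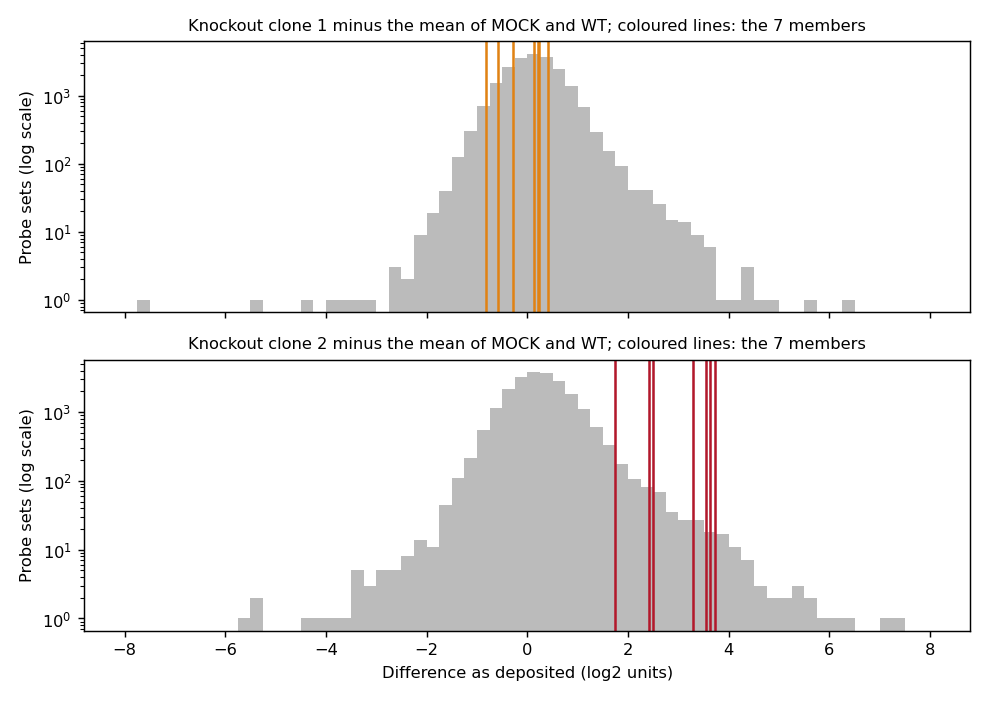
Number of probe sets (log scale) by the difference of clone 1 (top) and clone 2 (bottom) from the mean of MOCK and WT, as deposited, with a coloured line at each of the 7 members. The lines fall between -0.82 and 0.40 log2 units in clone 1 and between 1.73 and 3.72 in clone 2.

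The motif matches can be read against all promoters. Windows from 250 bases before to 50 after a start were at hand for 6 of the 7 measured members, and 6 of 6 genes held the ISRE core, where 3.94% of 15691 measured genes with a window did. GAS letters were in 3 of the 6, where 9.02% of these genes held them. Igtp and Irgm2 are counted separately here, though their stretches read almost alike. Gbp5 and Tgtp1, named by the rule but not measured, held both motifs. The second window of Gbp3, at another start, held neither. Among genes at least 2 log2 units higher in clone 2 than in clone 1, 21.1% of 190 with a window held the ISRE core, or 23.7% of 135 after quantile normalization. At a matched step of 1 log2 unit, the core was held by 6.88% of 1352 genes higher in clone 2 than in clone 1 and by 2.9% of 621 genes higher in clone 1 than in clone 2. After quantile normalization these shares were 8.61% of 848 and 3.19% of 877. GAS letters were in 9.1% of the 1352 and 5.48% of the 621, or 9.91% and 6.27% after quantile normalization, beside the 9.02% of measured genes. At 2 log2 units they were in 13.2% of the 190 and 11.9% of the 135. The sets higher in clone 2 include members already counted. Of 7 further family genes with a window, 4 held the ISRE core and 2 held GAS letters. A match says only that the letters are present.

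**Figure D3:**
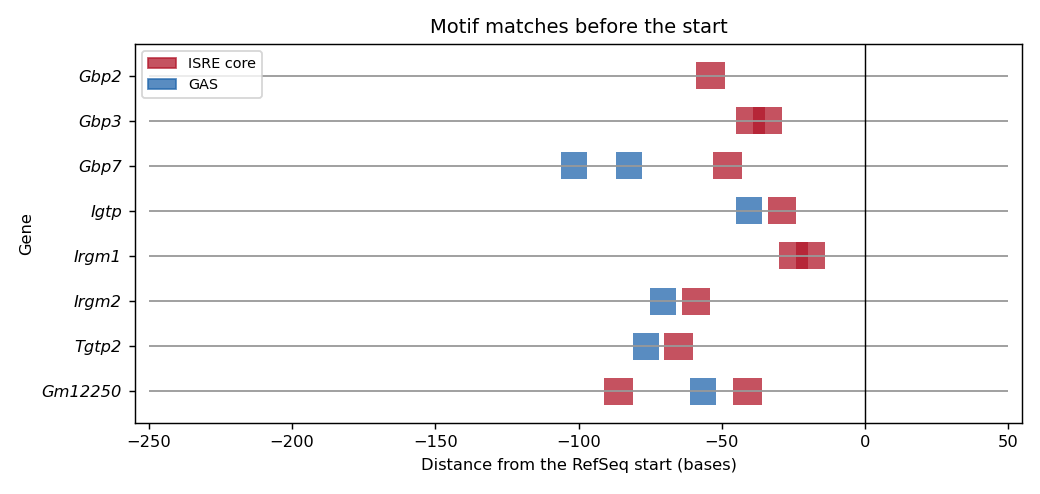
Positions of ISRE core (red) and GAS (blue) letters in windows from 250 bases before to 50 bases after the RefSeq start of 6 members and of Tgtp2 and Gm12250. The ISRE core lies before the start in every gene drawn, but for Tgtp2 and Gm12250 this holds by selection. Of 7 further family genes with a window, 4 held the core. In 9930111J21Rik1, not drawn, it lies after the start, at 27. The second window of Gbp3, which held neither motif, is not drawn. In Igtp, Irgm2 and Tgtp2 the GAS letters stand 2 bases before the ISRE core.

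The rest of the GTPase families showed which relatives moved with the members. A further 22 gene symbols of these families and their relatives were listed, with Irgc and Irgc1 naming the same gene. Of these, 16 were measured. Their median clone 2 difference from the controls was 2.98 log2 units, or 2.49 after quantile normalization. For clone 1 the median difference was -0.31, or -0.40. Clone 2 was called higher in the fit without clone 1 for 11 of the 16, where 2.16% of all probe sets were. Gm12250, listed in RefSeq as Irgb10, an IRG effector that attacks bacterial membranes, stood apart furthest. It had 3.97 in clone 1 and 9.16 in clone 2, against 4.52 in MOCK and 4.23 in WT, and only clone 2 was above the negative controls' 75th percentile (limma adjusted p = 5.20e-06 for clone 2 against the controls). Its promoter, chr11:58183723-58183842 on the plus strand of GRCm38.p6, is shown because it holds 2 ISRE cores, at -91 and -46, with GAS letters at -61.
Gm12250: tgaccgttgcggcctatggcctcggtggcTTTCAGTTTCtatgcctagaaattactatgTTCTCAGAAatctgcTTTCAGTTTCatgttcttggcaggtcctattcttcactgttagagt
The dynamin-like antiviral GTPase gene Mx2 had 6.38 in clone 1 and 10.12 in clone 2, against 6.53 in MOCK and 6.27 in WT. Its signals outside clone 2 were under the negative controls' 75th percentile on their own arrays. Tgtp2, a near copy of the effector Tgtp1 (named here after its value was seen, as are Gbp4, Gvin1, Irgq and Irgc1), had 10.47 in clone 1 and 13.53 in clone 2, against 10.69 in MOCK and 9.67 in WT. No probe sequences were used here, so signals of such near copies cannot be told apart. Gbp4, of the chromosome 5 GBP cluster, had 5.60 in clone 1 and 9.48 in clone 2, against 6.08 in MOCK and 6.53 in WT, and was under the negative controls' 75th percentile in clone 1 and MOCK. Irgq, an IRG-like gene that is not known as interferon-inducible, differed from the controls by -0.07 log2 units in clone 2, and Irgc1, a testis gene of the family, by 0.03, at a signal below the negative controls' median on every array.

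Some relatives departed from the members' pattern in clone 1. The IRG genes 9930111J21Rik1 and 9930111J21Rik2 on chromosome 11 were high in both clones. The first had 13.16 in clone 1 and 14.01 in clone 2, against 11.35 in MOCK and 10.27 in WT, and the second 13.24 and 14.13, against 11.41 and 10.21 in the same arrays. Their knockout minus control differences of 2.78 and 2.88 log2 units had an adjusted p of 0.0750 each as deposited and 0.166 each after quantile normalization. Both genes passed with both clones when dim probe sets were left out and with trend and robust in eBayes, where the limma adjusted p was at most 0.000387. In addition, clone 1 alone was called higher than the controls (limma adjusted p = 0.0390 and 0.0340). RefSeq gives both the synonym 9930111J21Rik, and as near copies they may share signal. Gvin1, which encodes a giant interferon-induced GTPase, had 3.81 in clone 1 and 8.68 in clone 2, against 7.51 in MOCK and 7.92 in WT. Clone 1 was in the range of the negative controls, and the fit without clone 2 called it lower (adjusted p = 0.000213), while the fit without clone 1 gave 0.456 for clone 2. The difference between the clones was not tested.

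**Figure D4:**
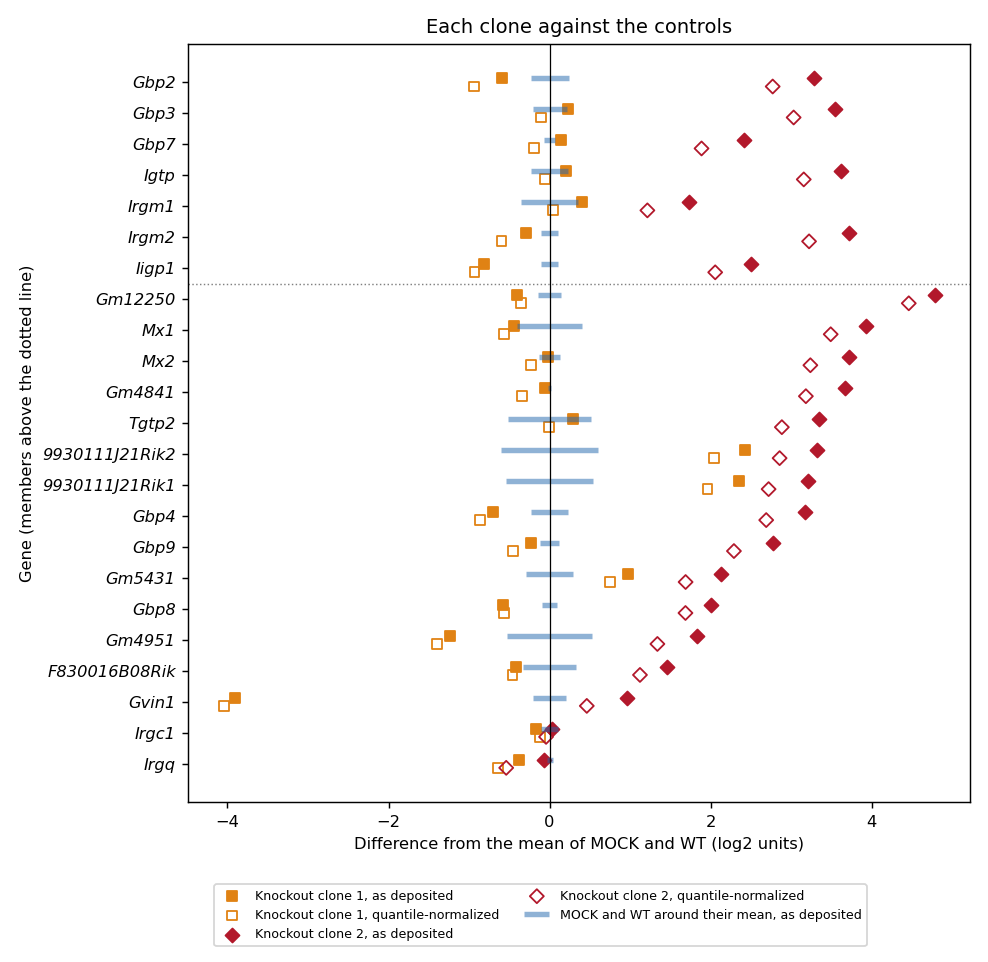
Difference of clone 1 (squares) and clone 2 (diamonds) from the mean of MOCK and WT in log2 units, as deposited (filled) and quantile-normalized (open), for the 7 members and 16 further GTPases, with bars spanning MOCK and WT. Clone 2 is to the right for the members and most relatives, 9930111J21Rik1 and 9930111J21Rik2 are to the right in both clones, and Gvin1 is to the left in clone 1.

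Upstream of the GTPases stand interferons, their receptors and kinases. Of 15 such genes, 0 passed limma in the knockout minus control fit, where 0.0405% of all probe sets were called. At that share a count of 0 says little about the list. At an unadjusted p under 0.05 there was 1, where 1944 of all 22206 probe sets were. Their median clone 2 difference was 0.14 log2 units, or -0.23 after quantile normalization, beside 0.24 and -0.03 over all probe sets. Ifng had 4.60 in clone 1 and 4.13 in clone 2, against 4.10 in MOCK and 4.53 in WT, and Ifnb1 had 4.51 and 5.17, against 4.25 and 4.65, so both sat below the negative controls' median. The receptor subunit Ifngr1 had 8.39 in clone 1 and 8.89 in clone 2, against 9.01 in MOCK and 8.58 in WT. As deposited clone 2 lay between the controls and clone 1 below both, and after quantile normalization both clones lay below both controls, at 8.30 in clone 1 and 8.58 in clone 2, against 9.04 in MOCK and 8.98 in WT. Ifngr2, the other subunit, had 10.76 in clone 1 and 11.25 in clone 2, against 10.24 in MOCK and 10.07 in WT. Its clone 2 difference from the control mean was 1.09 log2 units, or 0.58 after quantile normalization. Ifngr2 did not pass in the knockout minus control fit (limma adjusted p = 0.569), where 0 of 7 members passed either.

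Some of the factors that drive these promoters were higher in clone 2. Of 12 listed, 10 were measured (the others were not analysed here), and 4 were called higher in clone 2 against the controls without clone 1, where 2.16% of all probe sets were. Irf1, which drives GBP and IRG promoters, had 10.25 in clone 1 and 13.17 in clone 2, against 11.06 in MOCK and 10.43 in WT (limma adjusted p = 0.00776 for clone 2). Stat2 had 10.15 in clone 1 and 13.28 in clone 2, against 10.70 in MOCK and 10.52 in WT, and Irf9, its partner, 7.93 and 9.89, against 7.81 and 7.57. The fourth was Batf2, at 6.27 in clone 2 and 4.10 to 4.69 on the other arrays, all within background. In the knockout minus control fit 0 of 10 were called, where 0.0405% of all probe sets were. At an unadjusted p under 0.05 there were 3, where 1944 of all 22206 probe sets were. Irf7 was highest in clone 1, with 6.50 there and 5.26 in clone 2, against 3.22 in MOCK and 4.96 in WT. Only the clone 1 signal exceeded the negative controls' 75th percentile, 6.42 on that array, so the others may be background. MOCK minus WT was -1.74 log2 units, wider than the -1.24 of clone 2 minus clone 1.

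Of 9 feedback genes, 2 were called higher in clone 2, beside the same 2.16% of all probe sets. Usp18, an ISG15 protease that damps the type I receptor, had 10.47 in clone 1 and 14.54 in clone 2, against 10.10 in MOCK and 9.81 in WT. Isg15, the ubiquitin-like modifier, had 7.43 in clone 1 and 9.61 in clone 2, against 7.78 in MOCK and 6.58 in WT. Socs1, the main brake on interferon gamma signalling, had 5.83 in clone 1 and 6.02 in clone 2, against 6.36 in MOCK and 5.81 in WT. These signals were within background on every array, so they cannot show whether Socs1 followed.

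Among genes that act with the GTPases, 3 of 13 inflammasome genes were called higher in clone 2 against the controls, where 2.16% of all probe sets were, namely Casp4 (the sensor of cytosolic lipopolysaccharide, caspase-11), Zbp1 and Il18. Casp4 had 11.96 in clone 1 and 13.28 in clone 2, against 11.11 in MOCK and 10.83 in WT (limma adjusted p = 0.00954 for clone 2), with both clones above both controls. Zbp1, a nucleic acid sensor, had 5.90 in clone 1 and 9.51 in clone 2, against 6.50 in MOCK and 6.15 in WT. Outside clone 2 the Zbp1 signals were under the negative controls' 75th percentile on their own arrays, so they may be background. The cytosolic DNA sensor Aim2 had 5.33 in clone 1 and 8.57 in clone 2, against 7.31 in MOCK and 7.06 in WT. The clone 1 difference from the control mean was -1.85 log2 units. Its signal there was under the negative controls' 75th percentile, 6.42 on that array, so background limits the size of this decrease. Pycard and Nlrp3 were below the negative controls' median on all 4 arrays.

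Of 17 autophagy and ubiquitin genes, 2 were called higher in clone 2 in the fit with that background of 2.16%, the ISG15 conjugating enzyme Ube2l6, at 9.02 in clone 1 and 11.52 in clone 2 against 9.01 in MOCK and 8.51 in WT, and Calcoco1, an autophagy receptor, at 8.82 and 10.13 against 7.88 and 8.01. The conjugation genes that place GBPs and IRGs on vacuoles, Atg3, Atg5, Atg7, Atg12 and Atg16l1, were not called. Of 6 enzymes that attach or finish the lipid anchor of GBPs, 0 were called in any of these fits, and Pggt1b, a subunit of the enzyme that adds a prenyl lipid, had 9.05 in clone 1 and 10.14 in clone 2, against 9.42 in MOCK and 8.65 in WT. In the knockout minus control fit 0 genes of the feedback, inflammasome, autophagy and anchor lists were called, where 0.0405% of all probe sets were. At an unadjusted p under 0.05 these lists held 1, 2, 5 and 0 in that order, where 1944 of all 22206 probe sets were under it.

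**Figure D5:**
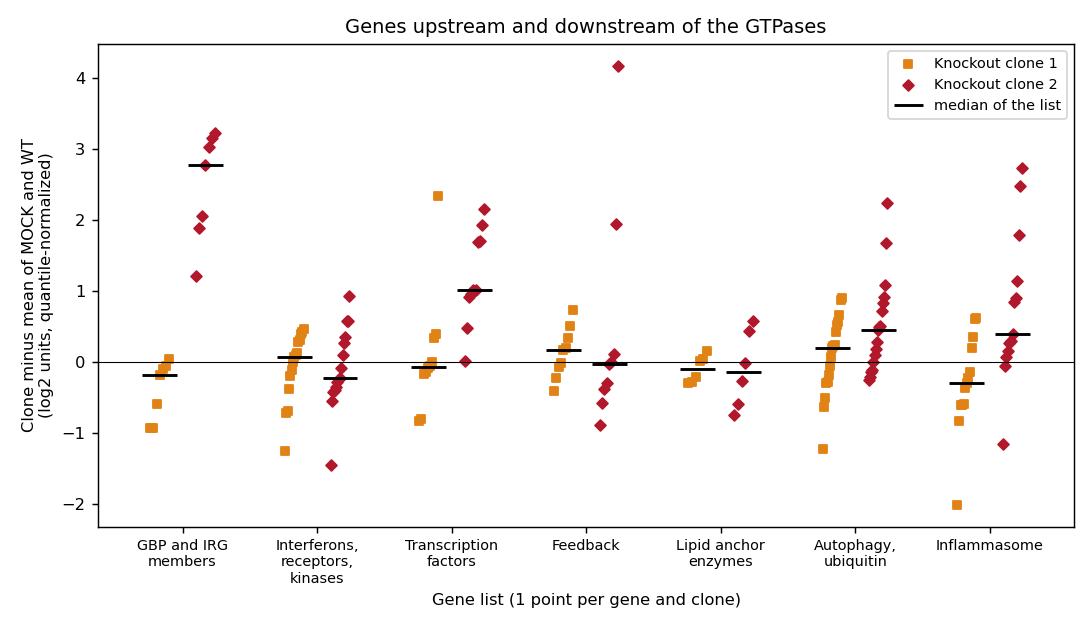
Quantile-normalized difference of clone 1 (squares) and clone 2 (diamonds) from the mean of MOCK and WT in log2 units, 1 point per gene, for the 7 members and 6 lists of genes around them, with a bar at each median. The members' median is 2.77 in clone 2 and the transcription factors' 1.02, while the interferon, receptor and kinase list stands at -0.23.

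The genes with profiles most like the members were found by the root mean square difference, over the 4 arrays, between a gene's values about its own mean and the members' median profile. The candidates were 10109 genes whose mean signal over the 4 arrays exceeded the negative controls' median, a limit that clone 2 alone can lift a gene past. The 10 nearest were Ifit1, Mx2, Cd274, Trim12a, Zbp1, Dhx58, Kcnd1, Slc15a3, Trim30a and Pla2g2e, at differences of 0.15 to 0.27 log2 units. Outside clone 2, Kcnd1 was below that median on every array, at 4.31 in clone 1, 4.71 in MOCK and 4.69 in WT. Slc15a3 was below it in clone 1, at 4.74, and in WT, at 5.01. After quantile normalization 6 of the 10 were again among the nearest 10. Promoter windows were at hand for 5 of the 10, of which 3 held the ISRE core and 0 held GAS letters. Ifit1, which binds viral RNA caps and was the nearest, had 9.36 in clone 1 and 13.03 in clone 2, against 9.35 in MOCK and 9.29 in WT. Cd274, which encodes the checkpoint ligand PD-L1, had 6.36 in clone 1 and 9.52 in clone 2, against 6.63 in MOCK and 6.08 in WT. With 4 arrays this likeness is a description and reflects mainly the height of clone 2.

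Markers of other cell types were mostly at background on all arrays. Of 10 macrophage markers 8 were measured, and their mean log2 signal was 4.31 in clone 1 and 4.51 in clone 2, against 4.61 in MOCK and 4.38 in WT, and Ptprc, Adgre1, Itgam and Csf1r were below the negative controls' median on every array. Cd14 alone of the 8 exceeded their 75th percentile, on all 4 arrays. The mean of 11 T, NK and B cell markers was 4.02 in clone 1 and 4.29 in clone 2, against 4.05 in MOCK and 4.09 in WT, with 1 marker, Cd4, past the 75th percentile and in clone 2 only. The mean of 5 endothelial markers was 3.54 in clone 1 and 3.79 in clone 2, against 4.28 in MOCK and 4.30 in WT. Of the epithelial markers, which define the tissue of a colon carcinoma, 0 of 9 exceeded the 75th percentile on any array, Epcam and Krt19 among them, whereas 5 of 5 mesenchymal markers did on every array.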

How the data were processed

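RNA of 4 MC38 samples was read on the Clariom S mouse array, 1 array each. The deposited values are log2 signals, a scale read from their range. The tool named is the Transcriptome Analysis Console, per the submitters' processing notes, and for its version, the normalization, the summarisation and the build nothing is recorded in what was used here. The deposited table has 28846 features, of which 6640 are controls and 22206 are probe sets that entered the tests. Platform annotation gave exactly 1 symbol to 19572 of them, and probe sets with no symbol or with several were left unnamed.

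Groups came from the titles, since a cell label names the knockout on all 4 samples. Knockout was compared with control in limma 3.58.1 (R 4.3.3) with lmFit and eBayes, adjusted by Benjamini-Hochberg over all 22206 probe sets and called under 0.05, after a run on simulated data. The number of arrays, 2 a group, limits how precise any value is. Adjusted p-values for 1 clone come from the same fit without the other. Alternatives were quantile normalization, median centring, filters at the median of mean signal and of the negative controls, eBayes settings, probe set choice and each array left out.

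Named genes were the measured members, Mgat5, the 10 genes nearest in profile, and up to 4 members per list by size of difference, with ligands, receptors, factors and inflammasome genes by role. Gbp4, Tgtp2, Gvin1, Irgq, Irgc1, Socs1 and the autophagy and marker genes may fall outside this rule and were named after their values were seen. The members and lists were chosen with earlier results of these data known. Promoter sequences are RefSeq's, GRCm38.p6.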

Additional observations from a re-analysis of the deposited data

How the results depend on the processing

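No paired analysis was possible because the labels number the clones but not the controls. The 9 probe sets called with all arrays as deposited became 1 after quantile normalization, 196 and 210 with the filters at the median of mean signal and of the negative controls, 340 with trend and robust, and 0 without moderation. With 1 array left out they ranged from 0 (without WT) to 804 (without clone 1, quantile-normalized), against 529 without clone 1 as deposited, 149 without clone 2 and 250 without clone 2 after quantile normalization. The 0 members called became 2 and 2 with the filters, 1 with trend and robust, and ranged from 0 to 6 with 1 array left out, the 6 being without clone 1 under both scalings. Filters change the number of probe sets adjusted over, and for the other settings the cause was not tested.

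The members' median for clone 1 minus the control mean, 0.14 as deposited, was -0.19 after quantile normalization. With 1 array left out it ran from -0.027 to 0.14 as deposited and from -0.46 to -0.16 after quantile normalization, with -0.19 without clone 2. For clone 2 minus the control mean, 3.29 became 2.77 after quantile normalization and 3.06 after median centring. With 1 array left out it ran from 3.05 (without MOCK) to 3.34 as deposited and from 2.27 to 3.09 after quantile normalization, with 2.75 without clone 1. Clone 2 minus clone 1 stayed between 3.09 and 3.32, with 3.14 after quantile normalization, 3.15 after median centring and 3.20 without WT after quantile normalization. MOCK minus WT was -0.11 after quantile normalization, also without either clone, and 0.088 after median centring.

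Single genes turned round when 1 clone was left out. With 1 array left out as deposited, knockout minus control ran from -0.59 to 3.29 for Gbp2, -0.29 to 3.72 for Irgm2, -0.82 to 2.50 for Iigp1, -0.40 to 4.79 for Gm12250, -0.022 to 3.71 for Mx2, -0.46 to 2.67 for Stat2, -0.50 to 2.42 for Irf1, -0.43 to 3.19 for Zbp1, -0.53 to 2.87 for Il18 and -3.91 to 0.96 for Gvin1. The lowest came without clone 2, the highest without clone 1. After quantile normalization and without clone 2, the difference was -0.94 for Gbp2, -0.11 for Gbp3, -0.19 for Gbp7, -0.060 for Igtp, -0.60 for Irgm2, -0.90 for Iigp1, -0.35 for Gm12250, -0.22 for Mx2, -0.0063 for Tgtp2, -0.062 for Irf9, -0.81 for Stat2, -0.83 for Irf1, -0.0082 for Isg15, -0.58 for Zbp1, -0.57 for Il18 and -0.054 for Ube2l6, and without clone 1 it was 0.46 for Gvin1. Irgm1 kept its sign in every setting run. Each member has 1 probe set, so the choice of probe set changed nothing.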
